A study of Mus musculus with 9 samples.

Results

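The ETS transcription factors described here were 10 genes, Spi1, Spib, Ets1, Ets2, Fli1, Elf1, Elf4, Etv6, Elk3 and Gabpa, chosen by name from a family that includes the known DNA-binding partners of IRF4. They were read by 23 of the 45101 probe sets on the arrays, which were all those whose platform annotation names a member. Each of the 10 genes passed the filter on low values, as did 21 of the 23 probe sets. The members and the lists of other genes below were chosen with earlier results of these data known. Their counts beside those of all genes are therefore descriptions and not tests. Total RNA of mouse pre-B cells was hybridised to 9 Affymetrix arrays. Pre-B cells are the stage of B cell development at which light-chain genes are rearranged, and the genotype of every sample was IRF4,8 -/-, so the controls lacked both factors too. Of the arrays, 3 (IL7hi) hold cells kept at high IL-7, 3 (IL7lo) cells kept at low IL-7, and 3 (+IRF4) cells given IRF4 back at high IL-7. The labels give 5 and 0.25 ng of IL-7 but disagree on the volume, so no concentration is stated. They name no vector or method for IRF4 and no group handled in the same way without it, so IRF4 and the means of putting it back cannot be told apart. No age, strain or clone of the cells is given in the sources used here.

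ETS factors share a winged helix-turn-helix domain that binds DNA around a GGAA core. PU.1, the product of Spi1, and its close relative Spi-B, the product of Spib, also recruit IRF4 or IRF8 to composite sites in which a GGAA core lies next to an IRF half-site, and such sites are known in the immunoglobulin light-chain enhancers. IRF4 alone binds DNA weakly. Ets1, Fli1 and Elf1 are widely used lymphoid activators, Ets2 and Elk3 respond to RAS and ERK signals, Etv6 is a repressor, and Gabpa binds DNA in a complex with GABPB.

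Promoters were compared because members rose together in low IL-7 while only some of them rose with IRF4. RefSeq sequences of GRCm38.p6, from 250 bases before to 50 after a gene's start, were matched for 7 of the 10 members. Spi1, Ets1 and Fli1 had none, and the other members had 9 promoters in all. Those of Spib, whose probe set rose in both comparisons with high IL-7, and of Ets2 and Elk3, whose brightest probe sets rose in low IL-7 and were not called with IRF4, follow 5′ to 3′ on the gene's strand. Capitals mark the ETS core GGAA on either strand. They lie at chr7:44532022-44532321 (minus strand), chr16:95702157-95702456 (plus strand) and chr10:93311110-93311409 (minus strand).
Spib: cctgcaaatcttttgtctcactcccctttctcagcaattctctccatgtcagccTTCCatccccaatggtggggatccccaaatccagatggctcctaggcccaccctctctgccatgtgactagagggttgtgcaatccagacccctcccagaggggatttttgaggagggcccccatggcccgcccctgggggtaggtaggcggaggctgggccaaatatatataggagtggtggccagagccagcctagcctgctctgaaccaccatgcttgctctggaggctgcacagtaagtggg
Ets2: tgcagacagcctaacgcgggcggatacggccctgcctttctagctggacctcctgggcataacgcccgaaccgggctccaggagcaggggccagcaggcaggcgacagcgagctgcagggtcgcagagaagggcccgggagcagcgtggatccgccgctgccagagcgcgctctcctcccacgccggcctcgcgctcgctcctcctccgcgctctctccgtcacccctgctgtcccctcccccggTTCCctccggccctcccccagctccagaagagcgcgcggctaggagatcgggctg
Elk3: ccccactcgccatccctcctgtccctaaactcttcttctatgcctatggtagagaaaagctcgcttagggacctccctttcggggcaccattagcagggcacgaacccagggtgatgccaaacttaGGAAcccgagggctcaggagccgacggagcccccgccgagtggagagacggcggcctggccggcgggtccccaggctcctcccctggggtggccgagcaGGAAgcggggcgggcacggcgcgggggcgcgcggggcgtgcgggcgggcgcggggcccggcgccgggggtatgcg
The Spib promoter held 1 GGAA core, that of Ets2 held 1 and that of Elk3 held 2, against a median of 3 over the 32851 promoters of the same length, 96% of which held at least 1. GGAA followed after 2 bases by GAAA, the ETS-IRF composite in this spacing, was searched on both strands and was found in none of the 9 member promoters and in 2.72% of all promoters. GAAA followed after 2 bases by another GAAA, an interferon response core that shares GAAA with the composite, was in the Etv6 promoter and in 3.44% of all promoters. GAGGAAGT, a longer PU.1-type site that overlaps the ETS core, was in the Gabpa promoter and in 3.2% of all. A match describes letters in these windows and is no evidence of binding, and a lack of one says nothing of sites elsewhere.

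The arrays had median intensities of 139.7 to 151.2. Differences are given as log2(intensity + 16), a scale on which dim genes change less than their intensities do, with the standard error (SE) or standard deviation (SD) and n = 3 arrays per group. A gene was called changed at an adjusted p under 0.05 (limma, Benjamini-Hochberg over all 12828 genes tested). Intensities are the deposited values, given for each group in the order of replicates 1, 2 and 3. The labels do not tell whether replicate arrays hold RNA of separate cultures or mice, so p-values measure only the spread between arrays, which may be technical. The dimmer of 2 Irf4 probe sets read 381, 202 and 261 in IL7hi, 316, 270 and 257 in IL7lo and 1088, 1379 and 2543 in +IRF4, in the direction of the labels. The brighter read 3702 to 7926 over all 9 arrays and was lowest in +IRF4, so it does not mark the added gene; where either lies relative to the deleted part is not given. In bulk RNA, a change in the share of cells that express a gene and a change in RNA per cell cannot be told apart.

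The first comparison, of IL7lo with IL7hi, asked how the ETS genes respond when the cytokine falls. Spib, Ets1, Ets2, Fli1, Elf1 and Elk3 rose, by 0.35 to 1.19 on the log2 scale. None of the 10 fell, and Spi1, Elf4, Etv6 and Gabpa were not called. Thus 6 of 10 members rose, where 17.8% of all genes tested rose and 19.6% fell. As the members were chosen with earlier results known, this share only describes them. The median difference of the members was 0.42, beside 0.02 over all genes. Of the 23 probe sets, 12 rose and 1 fell, where 12.1% of all 45037 probe sets rose and 11.3% fell (adjusted over all probe sets).

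The next comparison, of +IRF4 with IL7hi, asked what IRF4 changes while IL-7 is held fixed. Spib rose by 1.51 and Elf1 by 0.48, and the other 8 members were not called. Thus 2 of 10 members rose, where 1.89% of all genes (243) rose and 0.951% (122) fell. That background balance turned without +IRF4 replicate 1, with 270 genes higher and 335 lower, and with array weights, with 1613 higher and 1711 lower. The median difference was 0.04, beside -0.01 over all genes. At the probe set level, 2 of 23 rose, 1 of Spib and 1 of Elf1, where 0.953% of all probe sets rose, and none fell, where 0.711% of all did. Both comparisons use the same 3 IL7hi arrays.

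+IRF4 was compared directly with IL7lo to test where the routes differ. Spib was higher with IRF4 than in low IL-7, while Ets1, Ets2 and Elk3 were lower, so 1 of 10 members was higher, where 18.6% of all genes were, and 3 were lower, where 17.7% were. At the probe set level 2 were higher and 9 lower, where 10.7% and 14% of all probe sets were. The plot of differences between groups shows these contrasts side by side.

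**Figure D1:**
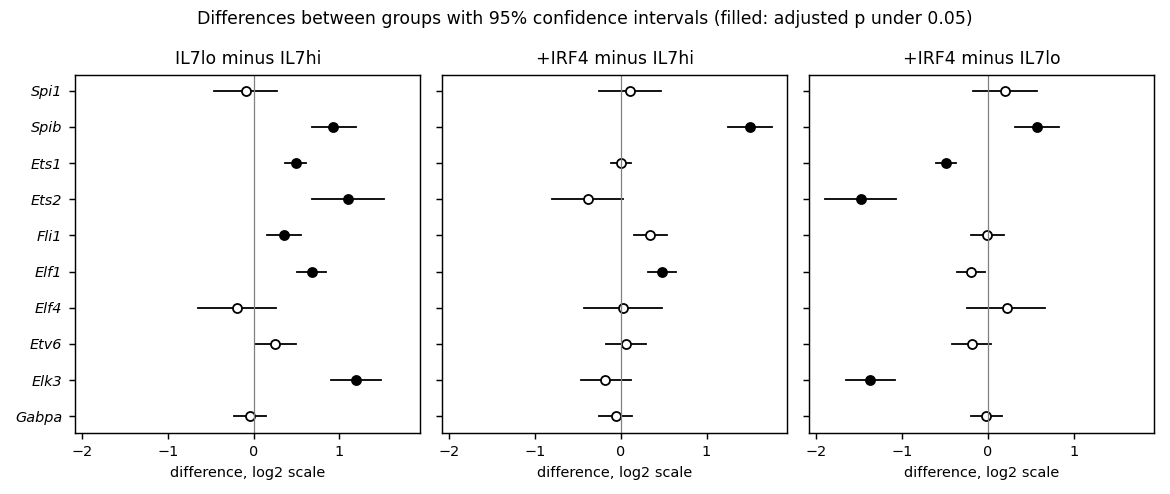
Differences between groups on the log2(intensity + 16) scale (x axis) for the brightest probe set of each of the 10 ETS genes (y axis). Points are limma estimates over 3 arrays per group, lines are 95% confidence intervals, and filled points have an adjusted p under 0.05. Spib lies right of 0 in all 3 panels, whereas Ets2 and Elk3 lie right of 0 in the first (1.10 and 1.19) and left of 0 in the last (-1.48 and -1.37).

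Spib, which encodes the lymphoid PU.1 relative Spi-B, read 2482, 2643 and 1999 in IL7hi, 4361, 4459 and 4735 in IL7lo and 5788, 7219 and 7281 in +IRF4. The 3 groups did not overlap, with every +IRF4 array above every IL7lo array and every IL7lo array above every IL7hi array. Spib rose by 0.93 in low IL-7 (SE 0.11, 1.91-fold, adjusted p = 0.000104) and by 1.51 with IRF4 (SE 0.11, 2.84-fold, adjusted p = 5.72e-05). With IRF4 it exceeded low IL-7 by 0.57 (95% confidence interval 0.32 to 0.83, adjusted p = 0.0028). It was the one member called in all 3 comparisons, and its groups' non-overlap compares with 50.3%, 21% and 48.1% of all genes in the 3 comparisons. It was read by a single probe set, so no other probe set checks it.

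Spi1, which encodes PU.1, the best known partner of IRF4 in B cells, read 888, 591 and 543 in IL7hi, 597, 621 and 629 in IL7lo and 683, 641 and 814 in +IRF4. The highest values were those of IL7hi replicate 1 and +IRF4 replicate 3, and the IL7hi arrays spanned both of the other groups. Its difference was -0.09 in low IL-7 (SE 0.17, 95% confidence interval -0.46 to 0.27, adjusted p = 0.704) and 0.11 with IRF4 (SE 0.17, interval -0.26 to 0.47, adjusted p = 0.824). Those intervals leave room for changes of up to the sizes given, so equal levels are not shown. In the same 2 arrays the 18S control signal was the lowest, at 6.53 and 6.41 on the log2 scale, against 7.70 to 8.49 in the other 7. Without both arrays the Spi1 difference was 0.12 in low IL-7 (adjusted p = 0.311) and 0.22 with IRF4 (adjusted p = 0.345), so it was not called either way.

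**Figure D2:**
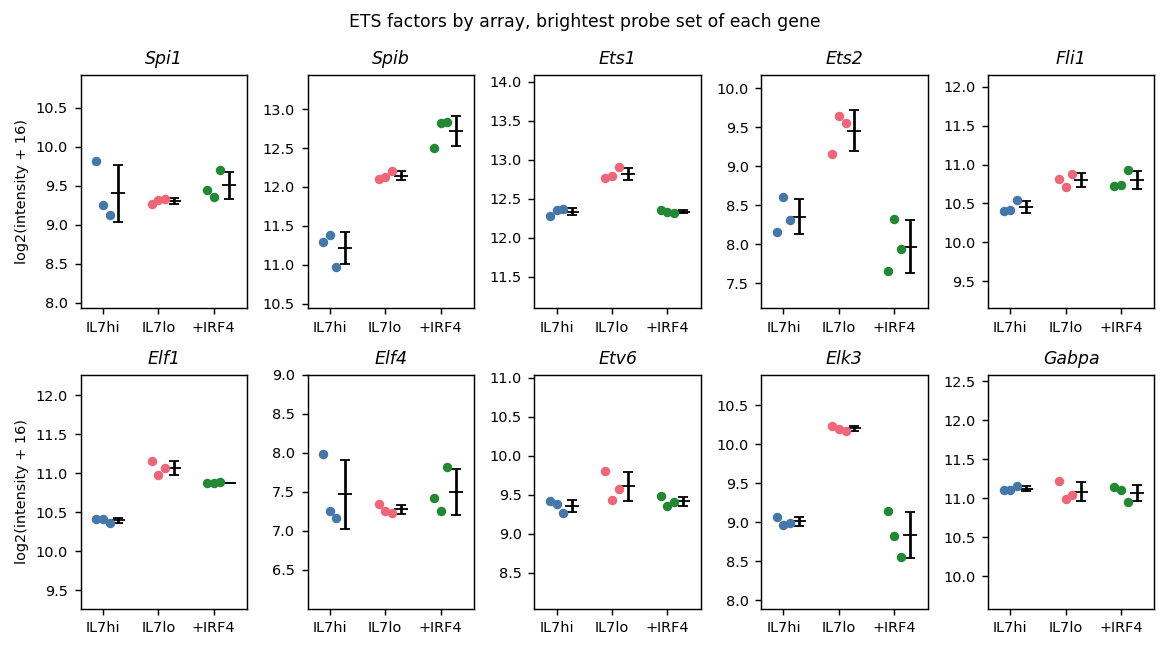
Values of the brightest probe set of each ETS gene as log2(intensity + 16) (y axis) by group (x axis), 1 point per array in the order of replicates 1 to 3, with the mean ± SD (n = 3) beside them. Each panel spans 3 log2 units at its own level. Spib steps up from IL7hi to IL7lo to +IRF4, Ets2 and Elk3 are high in IL7lo alone, and Spi1 and Elf4 each have their highest points in IL7hi replicate 1 and +IRF4 replicate 3.

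Ets1, a lymphoid activator held back by its own autoinhibitory helices, was read by 4 probe sets that did not move alike. The brightest, whose name marks it as able to match several transcripts, read 4964, 5247 and 5293 in IL7hi. It read 6975, 7080 and 7704 in IL7lo and 5245, 5117 and 5114 in +IRF4. IL7lo stood above both other groups without overlap, and +IRF4 lay within the range of IL7hi. The rise in low IL-7 was 0.49 (SE 0.05, 1.4-fold, adjusted p = 5.01e-05), and with IRF4 the difference was 0.00 (95% confidence interval -0.12 to 0.12, adjusted p = 0.991). The second probe set went the same way in low IL-7 (0.41, adjusted p = 0.0317, here over all probe sets), a call lost without any 1 of IL7lo replicates 1, 2 and 3 or IL7hi replicates 2 and 3 (adjusted p up to 0.106). The other two, which are dimmer, differed by 0.03 (adjusted p = 0.921) and 0.06 (adjusted p = 0.706) in low IL-7. The difference between the probe sets was not tested.

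Fli1, whose gene is the nearest protein-coding neighbour of Ets1 in the RefSeq table, with 0 such genes between them, is known from blood and vessel development. Its brighter probe set read 1336, 1354 and 1470 in IL7hi, 1789, 1662 and 1874 in IL7lo and 1669, 1695 and 1937 in +IRF4. Both of the other groups lay above IL7hi and overlapped each other. Fli1 rose by 0.35 in low IL-7 (SE 0.09, adjusted p = 0.00953) and differed by 0.34 with IRF4 (SE 0.09, adjusted p = 0.0757, not called). The dimmer probe set read 752, 644 and 573 in IL7hi, 664, 572 and 532 in IL7lo and 633, 821 and 678 in +IRF4, with overlapping groups. Averaging both ended the call in low IL-7 (0.10, adjusted p = 0.361), so the rise of Fli1 rests on 1 of its 2 probe sets.

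Elf1, an ETS activator of T and B cell genes, was the other member that rose with IRF4. Its brighter probe set read 1348, 1345 and 1298 in IL7hi, 2272, 2006 and 2136 in IL7lo and 1862, 1861 and 1867 in +IRF4. The groups did not overlap, and +IRF4 lay between the others. Elf1 rose by 0.68 in low IL-7 (SE 0.07, 1.6-fold, adjusted p = 4.35e-05) and by 0.48 with IRF4 (SE 0.07, 1.4-fold, adjusted p = 0.00498). On this probe set +IRF4 and IL7lo differed by -0.20 (adjusted p = 0.0601, not called). The dimmer probe set read 711, 783 and 695 in IL7hi, 815, 957 and 930 in IL7lo and 657, 671 and 693 in +IRF4, so it was highest in IL7lo and lowest in +IRF4. Its rise in IL7lo (0.30, adjusted p = 0.0459) was lost without any 1 of IL7hi replicates 1 and 3, IL7lo replicates 2 and 3 and +IRF4 replicates 1 and 2 (adjusted p up to 0.157). It differed by -0.11 with IRF4 (adjusted p = 0.703 over all probe sets), and averaging both ended the Elf1 call with IRF4 (0.19, adjusted p = 0.165). The rise with IRF4 therefore rests on the brighter probe set. On the dimmer one +IRF4 was lower than IL7lo (-0.41, adjusted p = 0.00914, over all probe sets). Elf1 was also called lower in +IRF4 than in IL7lo with both probe sets averaged (-0.30, adjusted p = 0.00372). The same held with quantile normalization (adjusted p = 0.00428), array weights (adjusted p = 0.00281) and without IL7lo replicate 2 (adjusted p = 0.0449). The other 17 of 21 alternatives did not call it.

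Elf4, also called MEF, is an Elf1 relative known to regulate the quiescence of lymphocytes and stem cells. Its brighter probe set read 237, 136 and 128 in IL7hi, 146, 137 and 134 in IL7lo and 155, 136 and 210 in +IRF4. As for Spi1, IL7hi replicate 1 and +IRF4 replicate 3 were the highest, and the groups overlapped. Its difference was -0.19 in low IL-7 (95% confidence interval -0.65 to 0.26, adjusted p = 0.51) and 0.03 with IRF4 (-0.43 to 0.48, adjusted p = 0.972). Without those 2 arrays the values were 0.06 (adjusted p = 0.6) and 0.12 (adjusted p = 0.672). The dimmer probe set read 165, 125 and 123 in IL7hi, 115, 111 and 103 in IL7lo and 121, 124 and 161 in +IRF4, with the same 2 arrays on top. On it IL7lo lay below both other groups without overlap. Its difference from IL7hi was -0.29 (adjusted p = 0.131, over all probe sets, not called).

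Ets2, an ETS activator switched on by ERK phosphorylation, read 268, 373 and 302 in IL7hi, 555, 787 and 738 in IL7lo and 185, 304 and 230 in +IRF4 on its brightest probe set. Every IL7lo array was above every other array, and IL7hi and +IRF4 overlapped. Ets2 rose by 1.10 in low IL-7 (SE 0.19, 2.14-fold, adjusted p = 0.000963) and differed by -0.38 with IRF4 (SE 0.19, adjusted p = 0.38, not called). +IRF4 was below IL7lo by -1.48 (SE 0.19, 2.8-fold, adjusted p = 0.000153). The other two probe sets, whose names mark them as able to match several transcripts, rose by 0.55 (adjusted p = 0.00227) and 0.99 (adjusted p = 0.00356) in low IL-7, the second of them below the level filter. All 3 probe sets of Ets2 thus rose in low IL-7 and none was called with IRF4.

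Elk3, also called Net, is a ternary complex factor that works with SRF and represses its targets until ERK phosphorylates it. Its brightest probe set read 523, 485 and 493 in IL7hi, 1196, 1162 and 1133 in IL7lo and 547, 437 and 358 in +IRF4. IL7lo again stood apart from both groups, which overlapped each other. Elk3 rose by 1.19 in low IL-7 (SE 0.13, 2.29-fold, adjusted p = 4.98e-05) and differed by -0.18 with IRF4 (95% confidence interval -0.47 to 0.12, adjusted p = 0.595). The next 2 of its 4 probe sets rose by 1.20 (adjusted p = 3.86e-06) and 0.88 (adjusted p = 8.07e-06) in low IL-7. The dimmest, below the filter, differed by 0.19 (adjusted p = 0.361). The plot of all member probe sets shows these agreements and disagreements within genes.

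**Figure D3:**
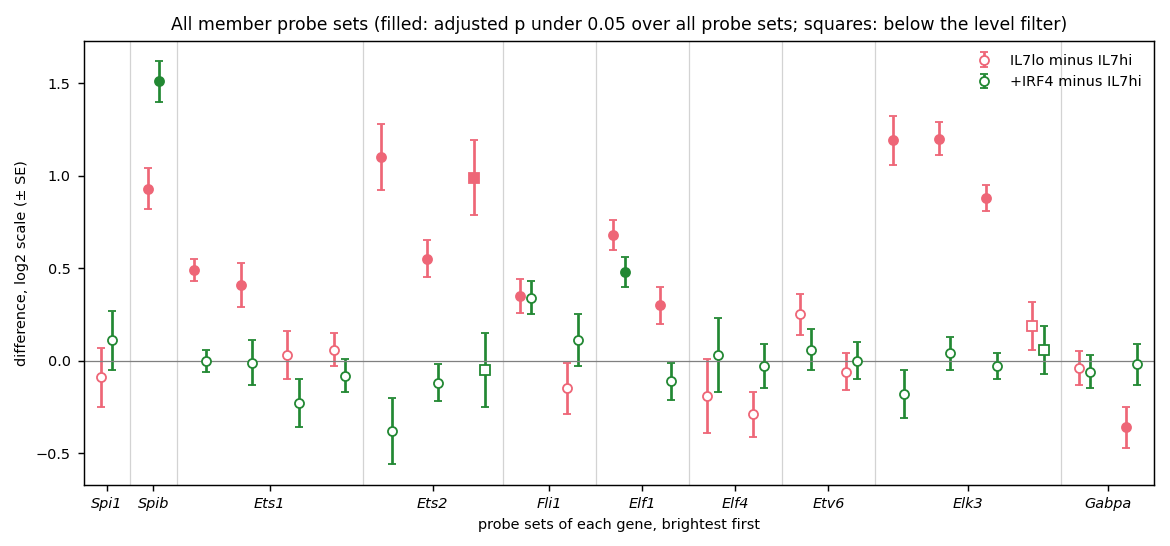
Difference from IL7hi on the log2(intensity + 16) scale (y axis, ± SE, 3 arrays per group) for all 23 member probe sets, grouped by gene with the brightest first (x axis), in IL7lo (red) and +IRF4 (green). Filled points have an adjusted p under 0.05 over all probe sets, and squares lie below the level filter. Of the red points 12 are filled above 0 and 1, of Gabpa, below it, whereas 2 green points are filled, those of Spib and of the brighter Elf1 probe set.

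Etv6, a repressor also called TEL that is often rearranged in childhood B cell leukaemia, read 667, 650 and 602 in IL7hi, 879, 677 and 752 in IL7lo and 696, 642 and 666 in +IRF4. IL7lo lay just above IL7hi without overlap. The difference in low IL-7 was 0.25 (SE 0.10, adjusted p = 0.0825, not called), and it passed after quantile normalization (0.29, adjusted p = 0.0131), with array weights (0.29, adjusted p = 0.000783) and without IL7lo replicate 2 (0.34, adjusted p = 0.0345). With IRF4 it was 0.06 (95% confidence interval -0.17 to 0.29). The dimmer probe set differed by -0.06 in IL7lo and 0.00 in +IRF4, with overlapping groups.

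Gabpa encodes the DNA-binding subunit of GABP, which controls many genes of mitochondria and of basic cell functions. Its brighter probe set read 2195, 2191 and 2279 in IL7hi, 2365, 2019 and 2094 in IL7lo and 2257, 2189 and 1957 in +IRF4, and all groups overlapped. Its difference was -0.04 in low IL-7 (95% confidence interval -0.23 to 0.14) and -0.06 with IRF4 (-0.25 to 0.13), which are narrower than the intervals of Spi1 and Elf4. In low IL-7 a small fall of -0.11 passed with array weights (adjusted p = 0.0366). The dimmer probe set read 560, 496 and 561 in IL7hi, 476, 367 and 415 in IL7lo and 545, 559 and 492 in +IRF4. In IL7lo it fell by 0.36 (adjusted p = 0.0416, over all probe sets), a call lost without any 1 of IL7hi replicates 1 and 3, IL7lo replicates 2 and 3 and +IRF4 replicates 1 and 2 (adjusted p up to 0.16).

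The other ETS genes, 16 in all, were examined with the same fit, and 11 passed the filter. In low IL-7, 2 rose and none fell, with a median of 0.00, beside 0.02 over all genes. A share of 2 in 11 is near the 17.8% of all genes that rose, so the count is no result about these genes. The 2 were Elk4, the SRF partner SAP-1 and a relative of Elk3 (0.85, SE 0.09, adjusted p = 3.74e-05), and Erg, a stem cell factor (0.86, SE 0.24, adjusted p = 0.0167). Elk4 was raised on the brightest of 4 probe sets, and the others differed by 0.14, 0.23 and 0.06 without a call. With IRF4 none of the 11 was called by limma. Against IL7lo, Elk4 (-0.92, adjusted p = 3.01e-05) and Erg (-1.46, adjusted p = 0.000871) were lower in +IRF4 and Ehf, an epithelial ETS factor, was higher (0.40, adjusted p = 0.00835).

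Of 18 genes whose products are known to act with ETS factors, 17 were tested. In low IL-7, 9 rose, among them Irf4 and Irf8, which the labels give as deleted, and 1 fell, where 17.8% of all genes rose and 19.6% fell. The median was 0.36, beside 0.02 over all genes. The 4 with the smallest p were Ebf1, a B lineage activator (0.67, SE 0.06, adjusted p = 1.14e-05), Cbfb, the partner of RUNX proteins (0.46, adjusted p = 2.84e-05), Runx3 (-0.92, adjusted p = 0.000132) and Ep300, a coactivator (0.65, adjusted p = 0.000148). Gabpb1, which encodes a partner of GABPA, differed by 0.29 (adjusted p = 0.336). Gabpb2, which encodes another, rose by 0.35 (adjusted p = 0.008) and was lower in +IRF4 than in IL7lo (-0.29, adjusted p = 0.0238). With IRF4, Ikzf1, which encodes Ikaros, rose by 0.74 (SE 0.06, adjusted p = 0.000102), and the brighter Irf4 probe set fell by 0.40 (adjusted p = 0.0359). The dimmer Ikzf1 probe set was not called with IRF4 (0.35, adjusted p = 0.223, over all probe sets) or in low IL-7 (-0.17, adjusted p = 0.381). Irf8 encodes the other IRF partner of PU.1, and the labels give it as deleted in every sample. Its 2 probe sets nevertheless read 1966 to 4086 and 1966 to 4426 over the 9 arrays, and where they lie relative to the deleted part is not given, so they do not check the genotype. In IL7lo the brighter rose by 0.43 (adjusted p = 0.0355), and the dimmer differed by 0.47 (adjusted p = 0.122, over all probe sets). With IRF4 against IL7hi, 1 of the 17, Ikzf1, rose and 1, Irf4, fell, where 1.89% of all genes rose and 0.951% fell. The median of the 17 in that comparison was 0.07, beside -0.01 over all genes. Irf4 entered the counts of both comparisons by its brighter probe set, which does not mark the added gene. The dimmer Irf4 probe set rose by 2.45 with IRF4 (adjusted p = 0.000861, over all probe sets). In low IL-7 it differed by 0.04 (adjusted p = 0.948).

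Genes known to be controlled through ETS sites in blood cells were described as a fixed list of 24, of which 16 were tested. In low IL-7, 8 rose and 1 fell, where 17.8% of all genes rose and 19.6% fell (median 0.26, beside 0.02 over all genes). Il7r, the IL-7 receptor, rose by 2.83 (SE 0.11, adjusted p = 2.53e-07), Blnk, a pre-B receptor adaptor, by 1.42 (adjusted p = 3.23e-07), and Cd72 by 1.13 (adjusted p = 4.1e-06). The 8 include Itgam, an integrin of myeloid cells, which read a mean of 43.6 in IL7hi, 227.4 in IL7lo and 58.8 in +IRF4 and so passed the filter of 108, with a mean of 110, only through IL7lo. Its difference of 2.01, against a group below the filter, depends on the added 16; in the fit of all probe sets, with no filter, its adjusted p was 6.77e-06. With IRF4, 3 rose and 1 fell, where 1.89% of all genes rose and 0.951% fell (median 0.17, beside -0.01). Cybb, an NADPH oxidase subunit known for a composite ETS-IRF site, rose by 3.54 (SE 0.32, adjusted p = 0.00015), from 5.25 ± 0.06 (SD, n = 3) to 8.79 ± 0.87 on the log2 scale. In IL7lo Cybb stood at 5.29 ± 0.03, and its other two probe sets rose with IRF4 as well (adjusted p = 0.0486 and 0.00576). Cybb passed the filter only through the +IRF4 arrays, where it was high, and both other groups lay below it, so its entry among the 16 genes came from the rise, whose size is set in part by the added 16. In the fit of all probe sets, with no filter, its adjusted p was 0.000121.

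Other called members of that list with IRF4 were Blk, a SRC-family kinase (1.70, adjusted p = 0.00254), Ms4a1, which encodes CD20 (2.97, adjusted p = 0.00289), and Cd72 (-0.51, adjusted p = 0.00867). Ms4a1 fell by 2.69 in low IL-7 (adjusted p = 0.000514), opposite to its rise with IRF4, and +IRF4 exceeded IL7lo by 5.66 (adjusted p = 5.08e-06). In IL7lo Ms4a1 stood at 5.79 ± 0.13 (SD, n = 3) on the log2 scale, below the filter, so the sizes of the fall and of the 5.66 depend on the added 16. Cd72 also went opposite ways. Blk rose in low IL-7 too (1.98, adjusted p = 8.13e-05), and +IRF4 and IL7lo differed by -0.28 (adjusted p = 0.395). Over the list, 3 genes were higher and 5 lower in +IRF4 than in IL7lo, where 18.6% and 17.7% of all genes were. Ciita, the class II transactivator, was among the higher ones (0.60, adjusted p = 0.0054).

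**Figure D4:**
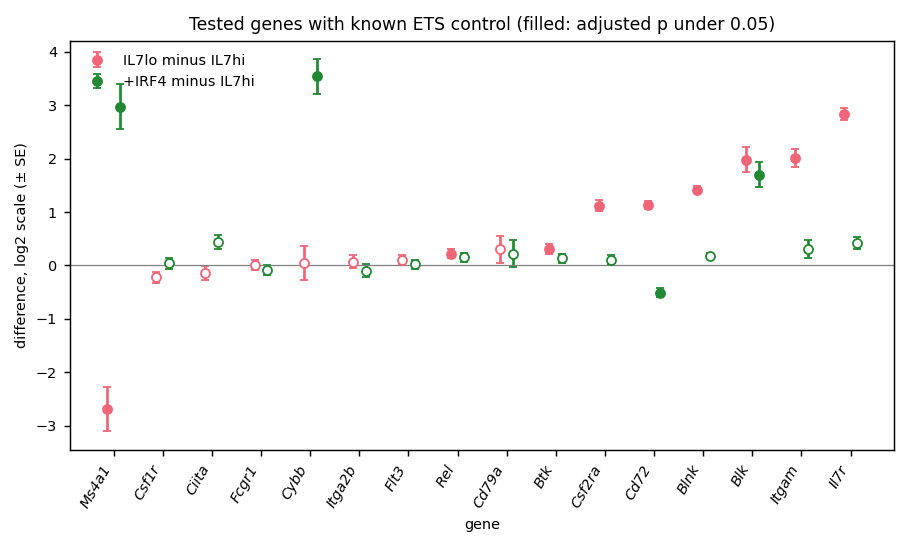
Difference from IL7hi on the log2(intensity + 16) scale (y axis, ± SE, 3 arrays per group) in IL7lo (red) and +IRF4 (green) for the 16 tested genes with known ETS control (x axis, ordered by the IL7lo difference). Filled points have an adjusted p under 0.05. Cybb stands at 0.04 in IL7lo and 3.54 in +IRF4, and Il7r at 2.83 and 0.42.

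Of 9 tested genes with known GABP control, 5 fell and 1 rose in low IL-7, where 19.6% of all genes fell and 17.8% rose (median -0.30, beside 0.02), while none was called with IRF4 by limma. Bysl, a ribosome biogenesis factor, fell by 1.33 (adjusted p = 9.69e-06), Atp5b, an ATP synthase subunit, by 0.51 (adjusted p = 0.000293), and the mitochondrial transcription factors Tfam and Tfb2m by 0.51 (adjusted p = 0.00179) and 0.52 (adjusted p = 0.00246). Skp2 rose by 0.25 (adjusted p = 0.0299). Beside these, the brighter Gabpa probe set differed by -0.04 and the dimmer fell by 0.36.

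The genes nearest to Spib and to Spi1 in pattern were found by the root mean square distance between centred log2 values over the 9 arrays. For Spib they were Zc3h12d, which encodes an RNA-degrading zinc finger protein (distance 0.19), Gpcpd1, a glycerophosphodiesterase (0.19), Tubb2b, a tubulin (0.20), and Zfp710 (0.21). Their differences were 0.79 to 1.06 in IL7lo and 1.11 to 1.45 in +IRF4. For Spi1 they were Tbc1d22b (0.07), Mocs1 (0.08), Neu3 (0.08) and Fam122a (0.09), which likewise had their highest values in IL7hi replicate 1 and +IRF4 replicate 3. At 8.62 and 8.62 on the log2 scale in those arrays, Tbc1d22b stood against 7.96 to 8.17 in the other 7. All of these genes were picked by nearness over the same arrays, so their likeness to Spib or Spi1 follows from the choice.

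Levels of B lineage markers differed by gene. Cd79a, a subunit of the B cell receptor, read a mean of 6213 in IL7hi, 7263 in IL7lo and 7082 in +IRF4, whereas Cd2 read 120.2, 137.8 and 259.7. The mean of 9 tested markers was 11.61 to 11.86 in IL7hi, 12.19 to 12.24 in IL7lo and 11.88 to 11.94 in +IRF4 on the log2 scale. In low IL-7, 5 of the 9 rose and none fell, where 17.8% of all genes rose and 19.6% fell. With IRF4 against IL7hi, Cd2 and Cd79b rose and none fell, where 1.89% and 0.951% of all genes did. Against IL7lo, only Cd2 was higher in +IRF4 and 6 were lower, where 18.6% and 17.7% of all genes were. ETS genes are also expressed in other cells, so markers of those were read beside them. Of 7 endothelial markers 2 passed the filter, Pecam1, which rose by 1.23 in IL7lo and 1.14 in +IRF4, and Kdr (0.42 in low IL-7), while the defining Cdh5, Tek, Tie1, Vwf and Emcn were below the filter in mean level. The mean of 8 tested myeloid markers of 12 was 7.45 to 7.54 in IL7hi, 7.84 to 7.93 in IL7lo and 7.31 to 7.42 in +IRF4, with Mpo, Elane, Csf3r and Cd68 below the filter. In low IL-7, 2 of these 8 were called, Itgam, which passed the filter only through IL7lo, and Fcer1g (1.49), and 6 were not, with a median of 0.06 over the 8. With IRF4, Fcer1g fell by 1.40 (adjusted p = 0.00181). The mean of 7 tested stroma markers of 10 was 8.81 to 11.05 in IL7hi, 7.46 to 8.53 in IL7lo and 7.82 to 10.70 in +IRF4. IL7hi thus lay above IL7lo without overlap, and +IRF4 overlapped both. In low IL-7, 3 of these 7 fell, where 19.6% of all genes did, and 4 were not called. Of 8 T cell markers 4 and of 6 megakaryocyte markers 5 were tested, with means of 8.02 to 8.43 and 8.09 to 8.37 over all arrays. The part of any of these cells in the ETS values was not tested.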

How the data were processed

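The authors deposited 1 linear intensity value for each of 45101 probe sets on every array; their summarisation and scaling are not stated in what was used here, nor were detection calls. Values were taken as log2(intensity + 16) without further normalization, and groups from sample titles. A gene was read by its brightest probe set with 1 symbol (34945 probe sets; 932 had several and 9160 none), above the 40th percentile of mean intensity (108), which gave 12828 genes. Group means over all 9 arrays were fitted with limma 3.58.1 in R 4.3.3; a second fit took all 45037 probe sets other than controls, and the fits were checked on simulated data. Replicates correlated at 0.986 or above.

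Members and lists were chosen with earlier results of these data known. Named genes were all members, Irf4, Irf8, up to 4 called genes of each list per comparison by smallest p, and the 4 genes nearest in pattern to Spi1 and Spib. Gabpb1, Gabpb2, Skp2 and Ciita were added after their values were seen.

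Titles number replicates 1 to 3. Same-numbered IL7hi and IL7lo arrays deviated together (correlations 0.55, 0.39 and 0.29), but the labels do not say what the numbers share. Arrays of different numbers were not compared in this way. The main fit used no pairing, and the replicate number entered only as a block in an alternative. Alternatives were other scalings, filters, weights, blocks and arrays left out.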

Additional observations from a re-analysis of the deposited data

How the results depend on the processing

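Each difference of the 10 members in the 3 comparisons was recomputed under 21 alternatives, where 586 values kept their sign and side of the threshold, 44 did not, and 31 of those changed sign. The calls of Spib, Ets1, Ets2 and Elk3 kept both under every alternative run; the adjusted p of Spib was at most 0.000959 in low IL-7 and 0.00164 with IRF4. With the replicate number as a block, 6, 3 and 4 members were called in low IL-7, with IRF4 and between the routes. The block changed 1 call, that of Fli1 with IRF4 (0.34, adjusted p = 0.047), and no call in the comparison of low with high IL-7. The deviations of +IRF4 arrays correlated at -0.38 to -0.01 with those of the same-numbered arrays in the other groups.

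Of the counts, array weights moved the genes called to 8323 in low IL-7, 3324 with IRF4 and 7809 between them, from 4801, 365 and 4666. For IRF4 against high IL-7, fitting only the 6 arrays gave 222 genes, leaving out 1 array gave 195 (without +IRF4 replicate 2) to 605 (without +IRF4 replicate 1), with 203 without IL7hi replicate 3, and averaging a gene's probe sets left 1 member called in place of 2. The cause was not tested.

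All the values that changed sign were uncalled. In low IL-7, array weights gave 0.15 for Spi1 and 0.02 for Elf4, quantile normalization 0.02 for Gabpa, and single arrays left out gave -0.23 to 0.12 for Spi1, -0.34 to 0.06 for Elf4 and -0.11 to 0.00 for Gabpa. With IRF4 against high IL-7, centring on the median gave 0.02 for Ets1, averaging probe sets 0.00 for Elf4, and arrays left out gave -0.03 to 0.32 for Spi1, -0.03 to 0.02 for Ets1, -0.14 to 0.28 for Elf4 and -0.10 to 0.00 for Gabpa. Between the routes, centring gave 0.06 for Fli1 and 0.05 for Gabpa, averaging 0.13 and 0.16, array weights 0.06 for Gabpa, and arrays left out -0.07 to 0.03 for Fli1 and -0.06 to 0.05 for Gabpa. Leaving out both arrays of low 18S signal, an alternative chosen after seeing the data, gave 0.12 for Spi1 and 0.06 for Elf4 in low IL-7, 0.00 for Elk3 with IRF4 and 0.04 for Gabpa between the routes, and kept the counts of 6, 2 and 4 members called.

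The number of arrays, 3 per group, limits the precision of all values.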

Other observations

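Erg, which is no member, is the nearest protein-coding neighbour of Ets2 in the RefSeq table, with 0 such genes between them. Its brighter probe set stood on the log2 scale at 10.49, 9.89 and 10.16 in IL7hi, 11.14, 10.91 and 11.07 in IL7lo and 10.22, 9.21 and 9.31 in +IRF4, so IL7lo was the highest group for both neighbours. Its dimmer probe set differed by 0.12 in IL7lo (adjusted p = 0.472, over all probe sets) and was lower in +IRF4 than in IL7lo by -0.44 (adjusted p = 0.00893).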
